A study of Mus musculus with 97 samples.

Results

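Naproxen was set against control chow in the jejunum, with 7 naproxen and 8 control libraries, which are 15 of the 97 libraries of the series. The rule that picks them uses their labelled tissue, experiment and treatment. All mice were C57BL/6 females from the Jackson Laboratory, were 11 weeks old at the end and carried no engineered allele in the labels. The naproxen mice ate chow with 1323 ppm naproxen for 3 weeks, and the control mice ate normal chow. Both groups also received a daily injection of phosphate-buffered saline into the abdomen during the last week, so that injection is common to every mouse compared here. The protocol assigned 8 mice to each treatment, and 7 naproxen jejuna were analysed here. Each library came from a piece of 30 mg of flushed whole jejunum, with all wall layers and any attached tissue, and total RNA was depleted of ribosomal RNA because RIN, a score of RNA integrity, was below 8. A labelled dissection batch with 4 levels holds 2 control and 1 or 2 naproxen jejuna per level and was a block in the model. Nothing states that littermates or cages were spread over the groups, so p-values measure the spread between these mice.

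Naproxen is a non-steroidal anti-inflammatory drug that blocks both cyclooxygenases, Ptgs1 and Ptgs2, which turn arachidonic acid into the precursor of all prostaglandins. In the small intestine prostaglandins sustain mucus, blood flow and repair of the epithelium, and drugs of this class are known for injury to that lining. The jejunal wall also holds many intraepithelial T cells, which carry granzymes and release interferon gamma. Interferon induces guanosine triphosphatases, antiviral enzymes and the immunoproteasome, a form of the proteasome with exchanged catalytic subunits that makes peptides for MHC class I. In bulk tissue, fewer cells of a type and less RNA per cell cannot be told apart.

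Levels are CPM, estimated counts scaled to a common library size after TMM normalization, which are not corrected for transcript length, so they are compared between groups and not between genes. Depth ran from 14116943 to 27463737 counts in naproxen jejuna and from 12152350 to 26914917 counts in control jejuna. Enterocyte genes were abundant in all 15 libraries: the 22 listed brush border and transport genes summed to 11900 to 30400 CPM in naproxen jejuna and 14600 to 38400 CPM in control jejuna. That list does not separate jejunum from ileum. Fabp6, the bile acid binding protein that is abundant in ileum, stood at 5840, 4160 and 1620 CPM in naproxen replicates 1, 6 and 7 and at 2560 CPM in control replicate 1. In the other 11 libraries Fabp6 was at most 7.5 CPM under naproxen and at most 17.9 CPM under control. The share of counts taken by Rn7s1, the RNA of the signal recognition particle, was 5.23% to 22% in naproxen and 5.33% to 11.9% in control libraries. It was above 10% in naproxen replicates 4, 5 and 7 and in control replicates 6, 7 and 8. Several results, but not all, are given below with and without these libraries.

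Long transcripts stood higher, relative to short ones, in the naproxen libraries. Within each library, genes were ranked by their level relative to the mean over libraries and by transcript length. That rank correlation across genes was -0.0532 to 0.291 (median 0.0829) in the 7 naproxen libraries and -0.346 to 0.129 (median -0.123) in the 8 control libraries. The groups overlapped: 5 of 7 naproxen libraries (replicates 1, 2, 3, 4 and 6) lay inside the control range, whose upper end is control replicate 1, and 2 of 8 control libraries (replicates 1 and 7) lay inside the naproxen range. A two-sided exact permutation test over libraries, which did not take dissection batch into account, gave p = 0.00637 (0.0382 after Benjamini-Hochberg adjustment over 6 library measures). The median log2 difference was -0.15 in the shortest 2974 of 14873 coding genes and 0.11 in the longest 2975. The same medians were -0.03 and 0.02 between the jejuna of mice given naproxen plus tryptophan and those given tryptophan, which share no library with the first contrast. Between naproxen and celecoxib jejuna, a contrast with the same naproxen libraries, they were -0.08 and 0.05. The relation of each library to length entered a separate fit as a covariate. Since that covariate itself differs between the groups, its part and that of treatment cannot be told apart in the fit.

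Counts of list members below are at an unadjusted p below 0.05 and are to be read against all genes in the same fit. In the fit as reported, 7.96% of all genes were higher and 8.07% lower under naproxen at that limit. The shares were 1.65% and 1.98% with the length covariate, 2.78% and 2.96% without the libraries above 10% Rn7s1, and 14.5% and 11.1% without the libraries over 1000 CPM of Fabp6. A lower or higher count in these fits is thus not particular to a list.

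**Figure D1:**
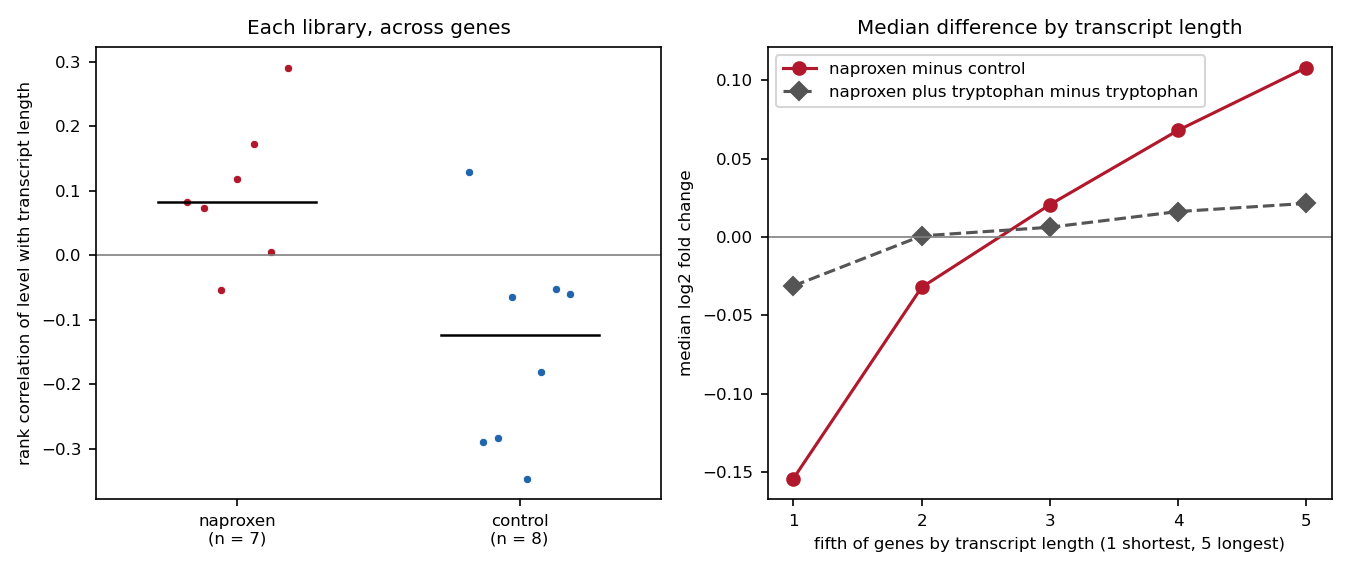
Left, the rank correlation, across coding genes, of each library's relative level with transcript length (points are libraries, black bars are group medians of 0.0829 for naproxen and -0.123 for control). Right, the median log2 fold change in 5 bins of transcript length, which runs from -0.15 to 0.11 for naproxen minus control and from -0.03 to 0.02 for naproxen plus tryptophan minus tryptophan.

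Of 17185 genes tested, 2 passed an adjusted p of 0.05 (0.0116%), and both fell under naproxen. They were Ntan1 and Rbbp9, and both were also among 94 genes called by DESeq2, 34 higher and 60 lower. By edgeR no gene rose at that threshold, although 2754 genes (16%) had an unadjusted p below 0.05, of which 1368 were higher (7.96%) and 1386 lower (8.07%) under naproxen. At an adjusted p of 0.1, a limit chosen after the values were seen, 7 genes passed (0.0407%), 6 with lower (0.0349%) and 1 with higher levels (0.00582%). The 7 naproxen and 8 control libraries did not overlap at all for 18 genes (0.105%), 13 of them lower (0.0756%) and 5 higher (0.0291%) under naproxen.

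Ntan1 encodes the amidase that turns an N-terminal asparagine into aspartate, an early step of the N-degron pathway that marks proteins for the proteasome. Its level was 16.7 to 22.6 CPM (median 20) in naproxen jejuna and 23.6 to 33.4 CPM (median 28.2) in control jejuna. Every naproxen library lay below every control library, and the sign was the same in all 4 dissection batches, with differences of mean log2 CPM of -0.71 to -0.19. The fitted log2 difference was -0.48 ± 0.09 (SE) with an adjusted p of 0.0496 by edgeR's quasi-likelihood test with Benjamini-Hochberg adjustment. Among 13 genes of the N-degron pathway with Rbbp9, a list drawn up after the values had been seen and holding both called genes, 3 were lower and 1 higher at an unadjusted p below 0.05, with a median of 0.01. Ntan1 lies at chr16:13818845-13835451 on the plus strand of GRCm38 in the GENCODE M21 annotation.

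Rbbp9 encodes a small serine hydrolase that binds the retinoblastoma protein. It had 8.6 to 11.7 CPM (median 9.92) in naproxen jejuna and 11 to 15.3 CPM (median 13.3) in control jejuna. The groups overlapped only through naproxen replicates 1 and 2, which lay above the lowest control libraries. The log2 difference was -0.40 ± 0.07 (SE), with an adjusted p of 0.0496 in edgeR, and it was between -0.60 and -0.25 within the 4 dissection batches. Rbbp9 lies at chr2:144542265-144550869 on the minus strand. Both calls sit at the edge of the threshold: leaving out any one of naproxen replicates 1, 2, 3, 4, 5 and 7 or of control replicates 2, 3, 4, 5 and 6 left 0 genes called. Leaving out naproxen replicate 6 left 3 and leaving out control replicate 1 left 8. The count was also 0 with the length relation as a covariate and without the libraries over 1000 CPM of Fabp6. With the Rn7s1 share as a covariate it was 2, with 1 higher and 1 lower, so at most 1 of Ntan1 and Rbbp9 was called there. The log2 values were -0.52 to -0.44 for Ntan1 and -0.43 to -0.38 for Rbbp9 over all 15 omissions.

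The promoters of the called genes are shown because they are the only 2 that passed the test, here as the RefSeq sequence of GRCm38.p6 from 250 bases before to 50 bases after the annotated start. Capitals mark matches, on either strand, to TTCNNNGAA, the letters of a gamma-activated site, or to the paired core of an interferon-stimulated response element, which is GAAA, any 2 bases and GAAA again. Neither motif is in the Ntan1 window (chr16:13819001-13819300, plus strand), and Rbbp9 (chr2:144550810-144551109, minus strand) holds a single TTCNNNGAA, a motif present in 6.99% of 12240 tested genes with a promoter in the table. The Ntan1 window lies inside the GENCODE span of the gene (chr16:13818845-13835451), so bases before the GENCODE start were not searched.
Ntan1: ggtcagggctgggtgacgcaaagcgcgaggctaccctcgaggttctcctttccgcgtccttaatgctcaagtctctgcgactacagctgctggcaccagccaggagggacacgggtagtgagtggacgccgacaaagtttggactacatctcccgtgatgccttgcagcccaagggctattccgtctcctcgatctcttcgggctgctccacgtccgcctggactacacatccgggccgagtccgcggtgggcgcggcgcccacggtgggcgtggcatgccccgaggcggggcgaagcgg
Rbbp9: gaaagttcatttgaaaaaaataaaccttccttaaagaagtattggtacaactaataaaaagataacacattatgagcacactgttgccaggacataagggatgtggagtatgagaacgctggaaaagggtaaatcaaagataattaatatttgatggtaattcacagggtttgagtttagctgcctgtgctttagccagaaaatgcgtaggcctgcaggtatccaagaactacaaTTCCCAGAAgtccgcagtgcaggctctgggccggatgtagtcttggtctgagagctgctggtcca

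Among the other genes with the 10 smallest p, 6 had lower and 2 had higher levels under naproxen, and none of them passed an adjusted p of 0.05. Plaat3, a phospholipase and acyltransferase abundant in fat tissue, had 13.4 to 29.6 CPM (median 26.5) in naproxen and 34.7 to 56.4 CPM (median 41.5) in control jejuna, with a log2 difference of -0.81 ± 0.16 (SE) and an adjusted p of 0.0898 in edgeR. Its groups did not overlap, and its lowest library was naproxen replicate 7. H2ac18, a replication-type histone H2A gene, had 13.1 to 53.9 CPM (median 43.2) in naproxen and 50.8 to 116 CPM (median 88.4) in control jejuna, with a log2 difference of -1.18 ± 0.24 (SE). Reads of near-identical histone copies could be split among them by the counting, so that value is uncertain for the single gene.

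Oas1e, a member of the interferon-induced 2'-5'-oligoadenylate synthetase family, was near the detection limit under naproxen, at 0.0457 to 0.551 CPM (median 0.344), and had 0.979 to 2.75 CPM (median 1.96) in control jejuna. The groups did not overlap, and the log2 difference was -2.39 ± 0.50 (SE), with an adjusted p of 0.0931 in edgeR. Shisa2, which encodes a membrane protein that dampens FGF and WNT receptors, had 7.04 to 12.7 CPM (median 11) in naproxen and 11.1 to 20.7 CPM (median 15.4) in control jejuna. Pigf, needed to add ethanolamine phosphate to the anchor of GPI-linked proteins, had 11.8 to 18.4 CPM (median 16.4) in naproxen and 15.5 to 29.1 CPM (median 24.1) in control jejuna. For both genes a single control library, replicate 1, reached into the naproxen range. The log2 differences were -0.58 ± 0.13 (SE) for Shisa2 and -0.59 ± 0.14 (SE) for Pigf. Nol10, a nucleolar protein of ribosome assembly, was higher at 5.5 to 8.95 CPM (median 6.27) in naproxen and 3.33 to 5.79 CPM (median 4.28) in control jejuna, with a log2 difference of 0.61 ± 0.13 (SE). Psmb8 and Sprr2a2, the remaining pair, are described with their groups.

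**Figure D2:**
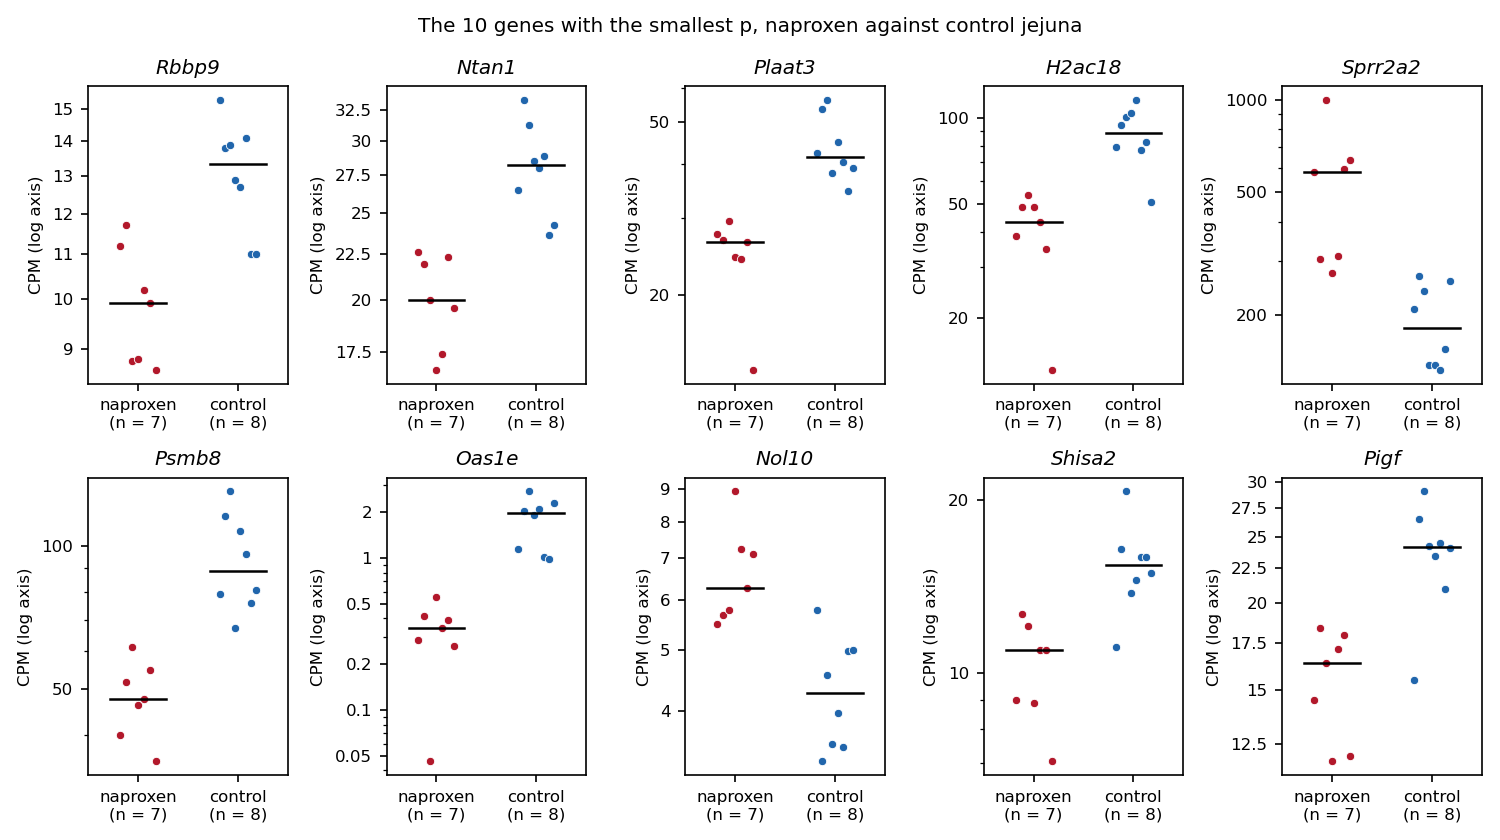
CPM on a log axis of the 10 genes with the smallest p, in 7 naproxen and 8 control jejuna (points are libraries, black bars are medians). Ntan1, Plaat3, Psmb8 and Oas1e lie lower in every naproxen library than in any control library, and Sprr2a2 lies higher, at 274 to 1000 CPM in naproxen and 133 to 268 CPM in control jejuna.

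Genes of cytotoxic lymphocytes stood lower under naproxen. Of 16 listed T and NK cell genes tested, 8 were lower and 0 higher at an unadjusted p below 0.05, against 8.07% and 7.96% of all genes, and 15 of 16 had a negative log2 difference, while 53.3% of all genes had a positive one. The median of the list was -0.64, against 0.02 for all genes tested. Their summed level was 47.7 to 81.1 CPM (median 65.8) in naproxen and 95 to 175 CPM (median 116) in control jejuna, without overlap. Most of the gap between those medians comes from Gzma, described next, so the sum does not show a separation of the whole list. With each gene weighed equally, the list's mean log2 CPM was 1.09 ± 0.215 in naproxen and 1.78 ± 0.262 in control jejuna (mean and SD).

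Gzma, the granzyme of cytotoxic granules with trypsin-like activity, had 5.6 to 29.9 CPM (median 8.9) in naproxen and 32.4 to 93.9 CPM (median 53.3) in control jejuna. The groups did not overlap, and the log2 difference was -1.84 ± 0.48 (SE), with an adjusted p of 0.17 in edgeR. Gzmb, the granzyme that cuts caspases, had 0.998 to 6.95 CPM (median 1.84) in naproxen and 5.38 to 16.8 CPM (median 8.45) in control jejuna, where only naproxen replicate 3 reached the control range. Cd8a, the coreceptor of cytotoxic T cells, had 2.16 to 5.5 CPM (median 4.24) in naproxen and 5.17 to 8.77 CPM (median 7.58) in control jejuna. The general T cell chains Cd3g and Cd3e had log2 differences of -0.69 ± 0.25 and -0.37 ± 0.21 (SE). Fasl, the death ligand of the same cells, is outside the list and was chosen after its lack of overlap had been seen. It had a low level, 0.452 ± 0.181 CPM in naproxen and 0.925 ± 0.218 CPM in control jejuna (mean and SD, n = 7 and 8).

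The median was also negative in the other fits. With the length relation as a covariate the list's median was -0.75, with 10 of 16 lower at an unadjusted p below 0.05. Without the libraries over 1000 CPM of Fabp6 it was -0.71, with 7 lower. Without the libraries above 10% Rn7s1, which leaves 4 naproxen and 5 control jejuna, it was -0.63, with 2 lower.

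Interferon-stimulated genes and the immunoproteasome pointed the same way. Of 25 listed interferon-stimulated genes, 10 were lower and 0 higher at an unadjusted p below 0.05, and 21 had a negative difference, with a median of -0.28. The guanosine triphosphatase Igtp, which guards vacuoles of intracellular pathogens, had 8.34 to 19.6 CPM (median 13.8) in naproxen and 16.7 to 50.6 CPM (median 26.6) in control jejuna. Its relative Ifi47 had 13.2 to 24 CPM (median 18.9) in naproxen and 23.8 to 48.8 CPM (median 30.7) in control jejuna. Only naproxen replicate 3 for Igtp and naproxen replicate 1 for Ifi47 lay above the lowest control library. The log2 differences were -1.0 ± 0.28 (SE) for Igtp and -0.76 ± 0.18 (SE) for Ifi47, each with an adjusted p above 0.05 in edgeR. Isg15, the ubiquitin-like modifier, had a log2 difference of -0.73 ± 0.33 (SE).

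Psmb8, a catalytic subunit of the immunoproteasome, had 35.1 to 61.3 CPM (median 47.6) in naproxen and 67.3 to 131 CPM (median 88.7) in control jejuna. No library overlapped, and the log2 difference was -0.93 ± 0.19 (SE), with an adjusted p of 0.0898 in edgeR. Psmb9, its neighbour on chromosome 17 and another such subunit, also showed no overlap, with 15.1 to 32.2 CPM (median 27.8) in naproxen and 35.8 to 58.4 CPM (median 45.5) in control jejuna. In a list of 28 immunoproteasome and MHC class I genes that was drawn up after the values had been seen, 14 were lower and 1 higher at an unadjusted p below 0.05. The list's median was -0.27, with 21 negative and 7 positive differences. The activator subunits Psme1 and Psme2, the peptide pump Tap1, the light chain B2m and the heavy chains H2-K1 and H2-D1 were among the lower ones, with log2 differences between -0.59 and -0.29. Ido1, the interferon-induced enzyme that opens the kynurenine pathway, had 3.37 to 19.6 CPM (median 10.7) in naproxen and 20.3 to 40.2 CPM (median 24.1) in control jejuna, without overlap. Tnfsf10, the death ligand TRAIL, is in neither list and was likewise chosen after its lack of overlap had been seen. It was 57.2 ± 6.12 CPM in naproxen and 81.1 ± 14.4 CPM in control jejuna (mean and SD, n = 7 and 8).

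The medians of both lists were also negative in the other fits. With the length relation as a covariate the interferon list had a median of -0.41, with 9 of 25 lower at an unadjusted p below 0.05, and the immunoproteasome list a median of -0.25, with 11 of 28 lower. Without the libraries over 1000 CPM of Fabp6 the medians were -0.25 and -0.37, with 6 and 14 lower. Without the libraries above 10% Rn7s1 they were -0.30 and -0.24, with 2 and 8 lower.

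Promoters of this group are printed to show where interferon motifs lie in them. The paired GAAA core was found in 13 of the 19 interferon-stimulated genes with a promoter in the table (68.4%), against 3.24% of all tested genes with one. The list was chosen as interferon-stimulated genes, so that share describes the list and not an effect of naproxen. Of the 13 with the motif, 6 were lower at an unadjusted p below 0.05, and of the 6 without it, 2 were. Their median log2 differences were -0.278 with and -0.205 without the motif. Igtp (chr11:58199306-58199605, plus strand) holds both motifs, Ifit1 (chr19:34640639-34640938, plus strand) and Isg15 (chr4:156200769-156201068, minus strand) hold the paired GAAA core more than once, and Psmb8 (chr17:34197945-34198244, plus strand) holds TTCNNNGAA. In Isg15 the matches overlap one another. Where a gene has several starts, only the first in the table was searched. The Psmb8 window lies inside the GENCODE span of that gene (chr17:34197721-34201454), so bases before its GENCODE start were not searched.
Igtp: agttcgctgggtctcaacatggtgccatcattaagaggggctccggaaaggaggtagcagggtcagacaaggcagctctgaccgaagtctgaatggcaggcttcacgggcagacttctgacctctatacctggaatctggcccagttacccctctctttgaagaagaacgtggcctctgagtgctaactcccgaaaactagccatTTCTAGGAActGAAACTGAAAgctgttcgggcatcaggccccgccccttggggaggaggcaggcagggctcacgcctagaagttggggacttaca
Ifit1: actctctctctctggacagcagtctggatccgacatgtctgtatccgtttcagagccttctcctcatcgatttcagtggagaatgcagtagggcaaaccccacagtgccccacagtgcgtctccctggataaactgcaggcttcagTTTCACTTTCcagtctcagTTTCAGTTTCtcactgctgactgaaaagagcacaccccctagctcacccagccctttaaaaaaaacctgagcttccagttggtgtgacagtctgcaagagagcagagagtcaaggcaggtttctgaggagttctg
Isg15: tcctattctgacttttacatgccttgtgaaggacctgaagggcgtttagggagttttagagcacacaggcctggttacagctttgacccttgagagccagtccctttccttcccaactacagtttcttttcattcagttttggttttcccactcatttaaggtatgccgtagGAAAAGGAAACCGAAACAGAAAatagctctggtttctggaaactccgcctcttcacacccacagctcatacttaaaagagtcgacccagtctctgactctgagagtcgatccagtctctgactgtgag
Psmb8: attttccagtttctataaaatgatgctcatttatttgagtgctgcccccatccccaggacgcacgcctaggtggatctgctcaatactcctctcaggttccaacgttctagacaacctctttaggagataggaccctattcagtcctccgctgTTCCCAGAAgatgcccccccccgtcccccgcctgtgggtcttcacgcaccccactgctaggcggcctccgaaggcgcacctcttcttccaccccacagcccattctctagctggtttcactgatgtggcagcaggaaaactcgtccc

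**Figure D3:**
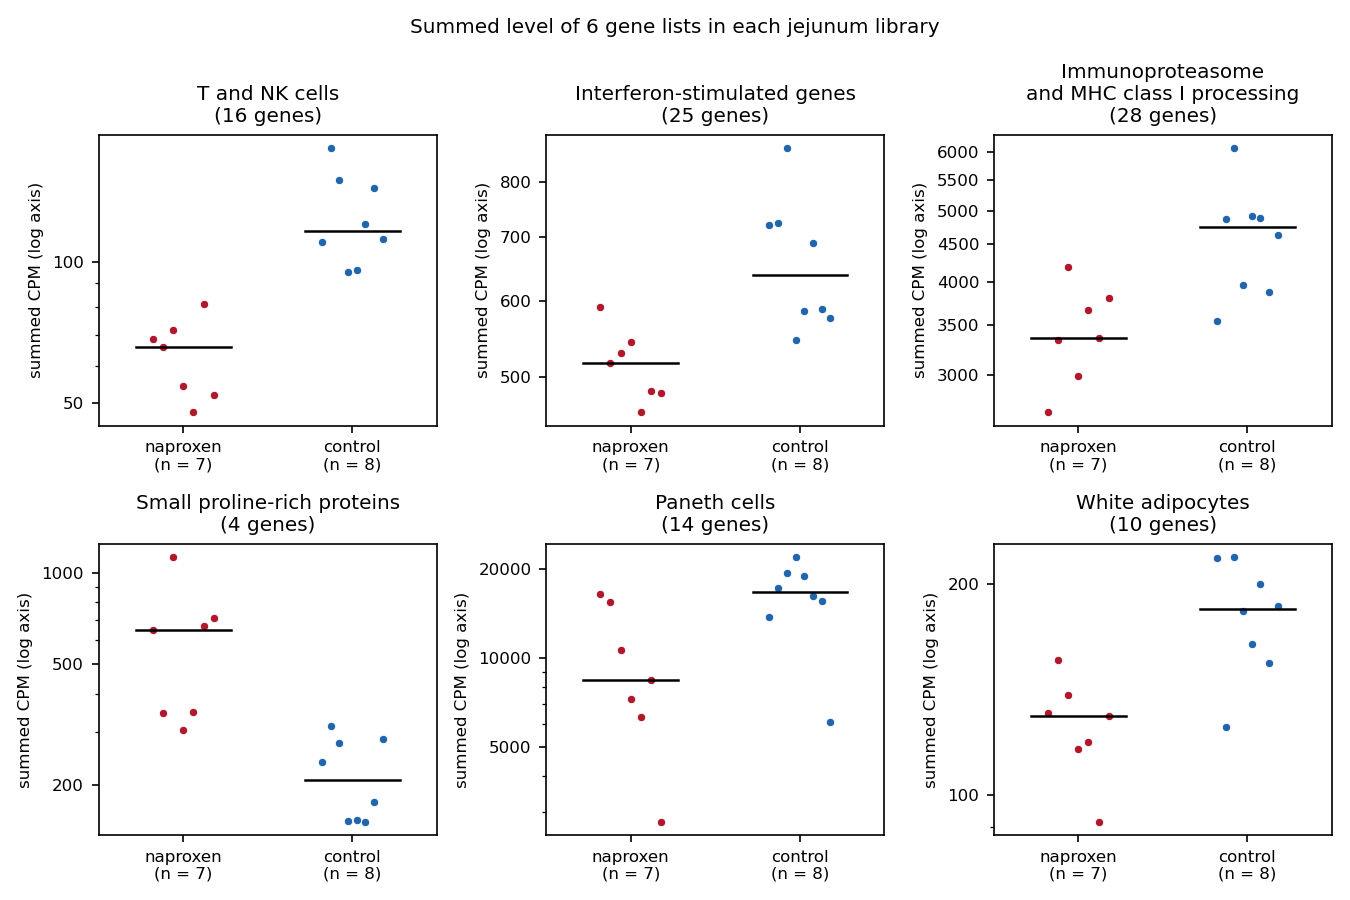
Summed CPM, on a log axis, of 6 gene lists in each of 7 naproxen and 8 control jejuna (points are libraries, black bars are medians). The T and NK cell sum does not overlap between groups (47.7 to 81.1 CPM in naproxen, 95 to 175 CPM in control), while the other sums do. Most of the gap between the medians of that sum comes from Gzma alone.

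Genes of the constitutive proteasome and heat shock chaperones stood lower too. Of 14 subunits of the constitutive 20S core, a list also drawn up after the values had been seen, 13 were lower at an unadjusted p below 0.05, with a median log2 difference of -0.38. Psmb5, the subunit that Psmb8 replaces, had 36.2 to 65.7 CPM (median 60.1) in naproxen and 62 to 83.5 CPM (median 68.7) in control jejuna. The transcripts of the list have a median length of 1220 bases, and coding genes in the same length bins had a median of -0.15. With the length relation as a covariate the list's median was -0.07 and 0 of 14 had an unadjusted p below 0.05, in a fit where 1.98% of all genes were lower. The 14 heat shock chaperones had 6 lower members and a median of -0.29, against a median of -0.01 for coding genes in the same length bins, and the list's median was -0.16 with 1 lower member in the covariate fit. The part of length in these differences cannot be told apart from that of treatment. Hspa8, the constitutive Hsp70, had 622 to 1120 CPM (median 768) in naproxen and 863 to 1300 CPM (median 1180) in control jejuna.

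**Figure D4:**
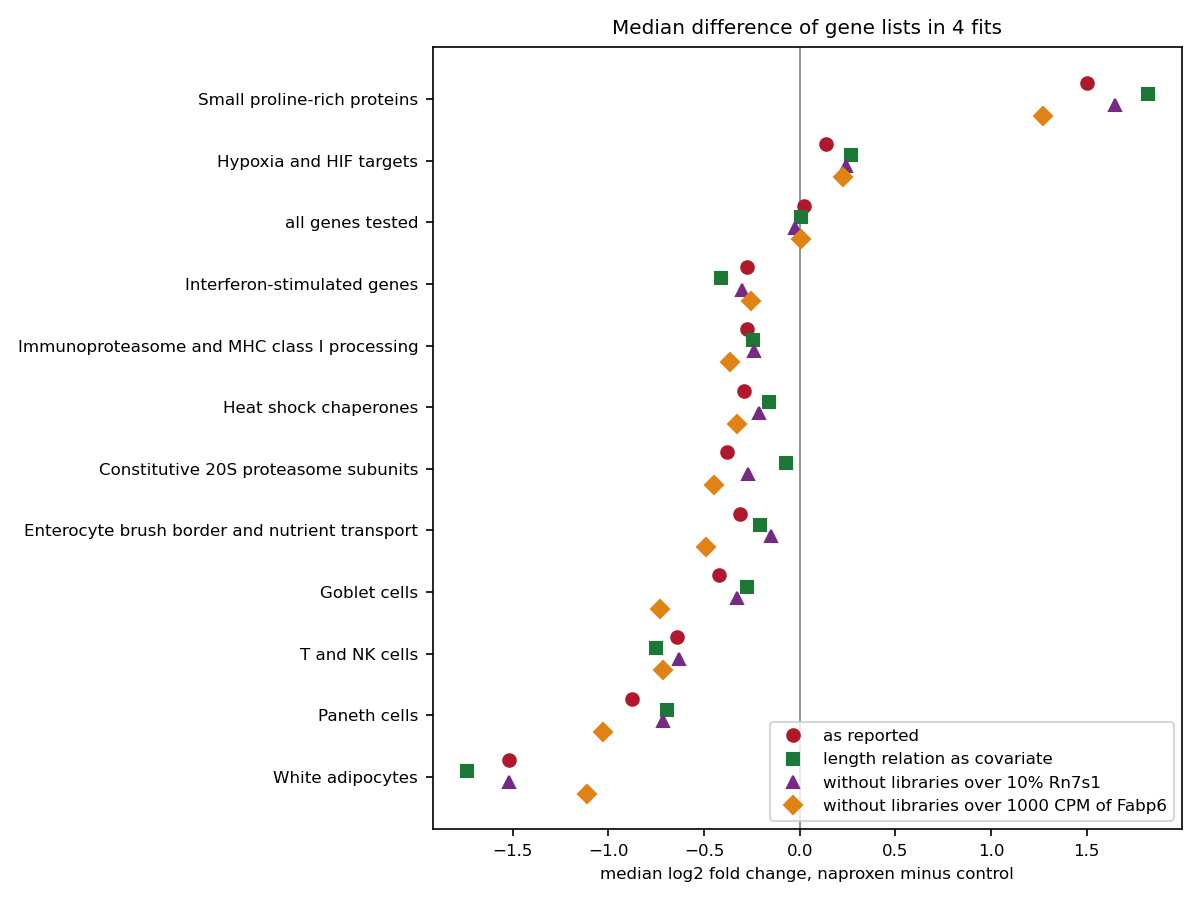
Median log2 fold change, naproxen minus control, of 12 gene sets in the fit as reported, with the length relation of each library as a covariate, without the libraries above 10% Rn7s1, and without the libraries over 1000 CPM of Fabp6. The constitutive proteasome median is -0.38 as reported and -0.07 with the covariate, and the T and NK cell median stays between -0.75 and -0.63 in all 4 fits.

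Small proline-rich proteins stood higher under naproxen. They are cross-linking proteins of the epithelial surface, and Sprr2a is induced in the gut by damage and bacteria. Of 16 genes in a list drawn up after the values had been seen, only 4 passed the filter on low counts and were tested. All 4 were higher at an unadjusted p below 0.05, against 7.96% of all genes. Sprr2a2 had 274 to 1000 CPM (median 581) in naproxen and 133 to 268 CPM (median 182) in control jejuna. Every naproxen library lay above every control library, the log2 difference was 1.48 ± 0.31 (SE), and the adjusted p was 0.0898 in edgeR. Sprr2a1 and Sprr2a3 had log2 differences of 1.34 ± 0.32 and 1.52 ± 0.38 (SE), and Sprr1a, a squamous relative, one of 2.01. The 3 Sprr2a genes are near-identical copies side by side on chromosome 3, so their split is uncertain and they do not count as independent. The median of the 4 genes was 1.82 with the length relation as a covariate, 1.65 without the libraries above 10% Rn7s1 and 1.27 without the libraries over 1000 CPM of Fabp6.

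The wider list of epithelial injury and antimicrobial genes was mixed. Of 23 tested, 5 were higher and 3 lower at an unadjusted p below 0.05. Besides the Sprr genes, Fut2, the fucosyltransferase of stressed epithelium, was the only higher one, with 0.574 to 2.32 CPM (median 0.96) in naproxen and 0.27 to 0.586 CPM (median 0.492) in control jejuna. The hydrogen peroxide source Duox2 had 11.8 to 79.1 CPM (median 41) in naproxen and 10.7 to 30.7 CPM (median 18.8) in control jejuna, and it did not pass an unadjusted p of 0.05. The lectins Reg3b and Reg3g, which kill bacteria, ran over similar ranges, 231 to 2560 CPM in naproxen and 296 to 1220 CPM in control jejuna for Reg3b. The list's median was 0.62, but it was 0.07 with only the 15 libraries compared in the model and -0.20 without the libraries over 1000 CPM of Fabp6. Duox2 was highest in naproxen replicates 1, 6 and 7, which are the naproxen libraries with high Fabp6.

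Among hypoxia-inducible genes, 5 of 19 were higher and 1 lower at an unadjusted p below 0.05, against 7.96% and 8.07% of all genes, with a median of 0.14. Vegfa, the vascular growth factor, had 64.7 to 113 CPM (median 87.9) in naproxen and 57.3 to 75.3 CPM (median 66.6) in control jejuna, with a log2 difference of 0.39 ± 0.11 (SE). Only naproxen replicate 2 lay inside the control range for it. Slc2a1, the glucose transporter, and Hk2, hexokinase 2, had log2 differences of 0.49 ± 0.20 and 0.38 ± 0.17 (SE). The lower member was Bnip3, a receptor for the removal of mitochondria, with a log2 difference of -0.33. The list's median was 0.27 with the length covariate, 0.24 without the libraries above 10% Rn7s1 and 0.22 without those over 1000 CPM of Fabp6.

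Secretory epithelial genes stood lower under naproxen, with wide spread. Of 14 Paneth cell genes, 8 were lower at an unadjusted p below 0.05 and all 14 had a negative difference, with a median of -0.88. The defensin Defa24 had 316 to 3950 CPM (median 1750) in naproxen and 1280 to 5110 CPM (median 4520) in control jejuna, and the lysozyme Lyz1 had 1710 to 6100 CPM (median 3400) in naproxen and 2760 to 8930 CPM (median 6160) in control jejuna. The lowest library of each group, naproxen replicate 7 and control replicate 8, came from the same dissection batch. In naproxen replicates 4, 5 and 7, those with the highest Rn7s1 shares, Paneth cell genes summed to 7255, 6338 and 2788 CPM. The other naproxen libraries had 8442 to 16492 CPM. Of the control libraries with the highest shares, replicate 8 had 6066 CPM, but replicates 6 and 7 had 16259 and 15582 CPM. The relation of these sums to the Rn7s1 share was not tested. Reads of near-identical defensins could be split among copies. Of 13 goblet cell genes, 5 were lower and all 13 negative, with a median of -0.42. Zg16, a mucus lectin, had 946 to 2830 CPM (median 2260) in naproxen and 2120 to 4170 CPM (median 2880) in control jejuna, while Muc2, the mucin itself, had a log2 difference of -0.23 ± 0.20 (SE). Without the libraries over 1000 CPM of Fabp6 12 of 13 goblet cell genes were lower and the median was -0.73, in a fit where 11.1% of all genes were lower. In the length covariate fit, where 1.98% of all genes were lower, 0 goblet cell genes and 1 Paneth cell gene were, with medians of -0.28 and -0.69.

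Other epithelial groups had few members past that limit. The 22 brush border and transport genes had 0 lower and a median of -0.31, and without the libraries over 1000 CPM of Fabp6 11 were lower, with a median of -0.49, where 11.1% of all genes were lower. Without the libraries above 10% Rn7s1 the median was -0.15. All 24 proliferation genes were negative, with 3 lower and a median of -0.25, which was 0.01 without the libraries above 10% Rn7s1 and -0.05 with the length covariate. Olfm4, a stem cell gene, had 41.4 to 501 CPM (median 370) in naproxen and 308 to 677 CPM (median 579) in control jejuna, where naproxen replicate 7 lay far below the rest. The 21 cholesterol synthesis genes had 0 members at an unadjusted p below 0.05 and a median of 0.17, which turned to -0.21, with 6 lower, without the libraries over 1000 CPM of Fabp6.

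The cyclooxygenases, the targets of the drug, were not called. Ptgs1 had 48.8 to 161 CPM (median 110) in naproxen and 50.2 to 150 CPM (median 69) in control jejuna, with a log2 difference of 0.41 ± 0.25 (SE) and an adjusted p of 0.411 in edgeR. Ptgs2 had 3.61 to 29.2 CPM (median 13) in naproxen and 4.82 to 23.1 CPM (median 8.76) in control jejuna, with a log2 difference of 0.33 ± 0.39 (SE). For both genes the ranges overlapped almost wholly, and control replicate 1 was the highest control. Of the alternatives tried, Ptgs1 passed only with no filter on low counts, with an adjusted p of 0.0434 in edgeR and a log2 difference of 0.41, in a setting that calls 1182 genes. Its log2 difference was 0.75 without the libraries over 1000 CPM of Fabp6 and -0.08 without those above 10% Rn7s1. Among 11 prostanoid enzymes 1 was lower at an unadjusted p below 0.05, Ptges2, and among 11 prostanoid receptors and transporters 0 were. Of 23 cytochrome P450 and other phase I genes, which clear many drugs, 2 were lower and 0 higher, a share of lower genes near the 8.07% of all genes, and Cyp3a11 had 196 to 2150 CPM in naproxen and 469 to 1930 CPM in control jejuna. NRF2 targets and glutathione transferases had 6 of 28 lower and a median of -0.20, which was 0.13 with the length covariate and -0.09 without the libraries above 10% Rn7s1. Among them Gstt1, a transferase of the theta class, was at 14.6 to 28.7 CPM (median 20.7) in naproxen and 23.6 to 48.6 CPM (median 37.3) in control jejuna.

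Markers of tissue attached to or scattered in the wall varied too. Of 10 white adipocyte genes, 7 were lower at an unadjusted p below 0.05, against 8.07% of all genes, with a median of -1.52. With only the 15 libraries compared in the model 9 of the genes were tested and the median was -0.94, with 6 lower. Without the dissection block 3 were lower, in limma voom 1 was, and without the libraries over 1000 CPM of Fabp6 1 was, with medians of -1.19, -1.40 and -1.11. Adipoq, the fat cell hormone, had 0 to 2.9 CPM (median 0.23) in naproxen and 0.162 to 11.7 CPM (median 5.2) in control jejuna. The summed adipocyte level was 91.5 to 156 CPM in naproxen and 125 to 219 CPM in control jejuna, and its part in the Plaat3 difference was not tested. B cell genes of lymphoid follicles were patchy: the 12 genes summed to 11.2 to 128 CPM in naproxen and 8.92 to 210 CPM in control jejuna, with a median log2 difference of 0.82 and 0 genes at an unadjusted p below 0.05. That median was -1.03 without the libraries above 10% Rn7s1. The 7 bile acid and FXR target genes, of which Fabp6 is one, were all positive with a median of 0.66, and the median was -0.32 without the libraries over 1000 CPM of Fabp6. All 13 smooth muscle genes were positive, 2 of them at an unadjusted p below 0.05, with a median of 0.31. It was -0.20 without the libraries above 10% Rn7s1, -0.09 with the length covariate and 0.62 without the libraries over 1000 CPM of Fabp6.

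A second naproxen contrast in the same cohort set 7 jejuna of mice given naproxen plus tryptophan (50 mg/kg, injected daily in the last week) against 8 of mice given tryptophan alone, and it shares no library with the first. By edgeR no adjusted p was at or below 0.05 (0 genes), while DESeq2 called 10. Unadjusted p was below 0.05 for 1141 genes (6.64%), 772 of them higher (4.49%) and 369 lower (2.15%). Across 17185 genes the log2 differences of the contrasts correlated with Pearson's r = 0.304 and Spearman's rho = 0.458, as a description across genes that are not independent. Of the 1368 genes higher at an unadjusted p below 0.05 in the first contrast, 80.4% were positive in the second, and of the 1386 lower ones, 86.2% were negative, against 68.2% and 69.9% of all positive and all negative genes.

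The 2 called genes differed little in that second contrast. Ntan1 had 15.1 to 24.3 CPM with naproxen plus tryptophan and 21.1 to 27.2 CPM with tryptophan, a log2 difference of -0.16 ± 0.09 (SE). Rbbp9 had 10.6 to 13.6 CPM with naproxen plus tryptophan and 10.4 to 13.5 CPM with tryptophan, a log2 difference of 0.02 ± 0.07 (SE). Shisa2 was the member of the 10 with the most similar value, -0.61 ± 0.13 (SE), from 9.34 to 12.9 CPM with naproxen plus tryptophan and 13.7 to 20.8 CPM with tryptophan, without overlap. Sprr2a2 had a log2 difference of 0.90 ± 0.31 (SE) there. None of these passed an adjusted p of 0.05 in the second contrast.

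The T and NK cell and interferon lists had medians of the other sign in mice given tryptophan. The T and NK cell list had a median of 0.21, with 1 gene higher and 1 lower of 16 at an unadjusted p below 0.05. The interferon list had a median of 0.18, with 3 higher and 0 lower of 25. The immunoproteasome and MHC class I list had one of 0.06, with 1 higher and 2 lower of 28. Not all immune lists changed sign: medians in the first and second contrast were 0.12 and 0.44 for macrophages and monocytes, and 0.33 and 0.26 for plasma cells. Gzma had 6.1 to 97.2 CPM with naproxen plus tryptophan and 5.32 to 41 CPM with tryptophan. Outside the immune groups, the Paneth cell list had a median of -0.12 in the second contrast, with 0 of 14 lower. White adipocyte genes had one of -0.37, with 1 of 10 lower, and goblet cell genes one of -0.26, with 1 of 13 lower. The difference between the 2 contrasts was tested gene by gene as an interaction, in which edgeR called 0 genes, against 2 in DESeq2. Unadjusted p was below 0.05 for 584 genes there (3.4%), with 1.97% positive and 1.43% negative. For Gzma the interaction was -2.30 ± 0.66 (SE) and for Rbbp9 -0.42 ± 0.10 (SE), with adjusted p of 0.973 for both.

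**Figure D5:**
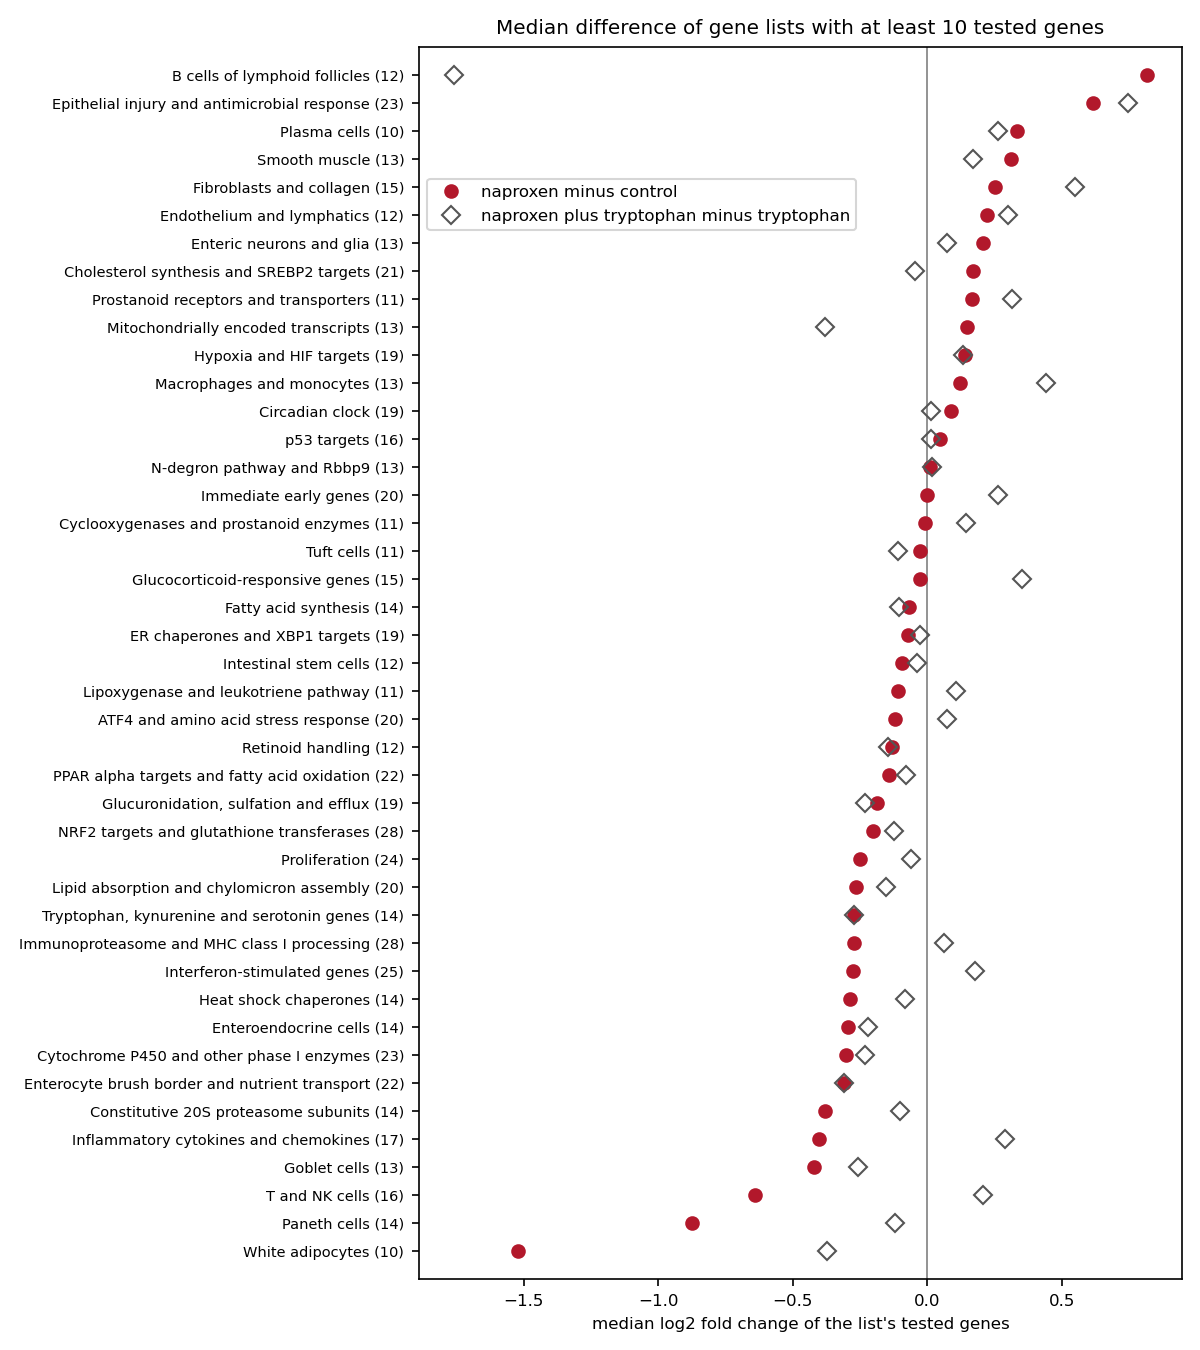
Median log2 fold change of each gene list with at least 10 tested genes (number in brackets), for naproxen minus control and for naproxen plus tryptophan minus tryptophan. Injury and brush border lists lie close together in both contrasts, while T and NK cell (-0.64 and 0.21), interferon (-0.28 and 0.18) and B cell (0.82 and -1.76) medians have opposite signs. Others do too, among them cytokine (-0.40 and 0.29) and mitochondrial transcript (0.15 and -0.38) medians. Paneth cell (-0.88 and -0.12) and white adipocyte (-1.52 and -0.37) medians are negative in both contrasts but nearer 0 in the second.

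Against 8 jejuna of mice on celecoxib chow (550 ppm), a drug of the same class that favours the second cyclooxygenase, naproxen jejuna differed in 0 genes by edgeR and in 291 by DESeq2. Unadjusted p was below 0.05 for 3211 genes (18.7%), of which 1889 were higher (11%) and 1322 lower (7.69%) under naproxen. The smallest adjusted p, 0.0643, belonged to Shisa2, with 7.04 to 12.7 CPM in naproxen and 12.6 to 19.8 CPM in celecoxib jejuna and a log2 difference of -0.64 ± 0.13 (SE). For Ntan1 the difference between the drugs was -0.21 ± 0.09 (SE) and for Rbbp9 -0.22 ± 0.07 (SE), with adjusted p of 0.216 and 0.14. For Sprr2a2 it was 1.19 ± 0.31 (SE) and for Psmb8 -0.62 ± 0.19 (SE), neither past an adjusted p of 0.05. The T and NK cell list had a median of -0.20 between the drugs, with 1 of 16 lower at an unadjusted p below 0.05. The interferon list had one of -0.08, with 4 of 25 lower, and neither list had a higher member. The immunoproteasome and MHC class I list had a median of -0.24, with 13 of 28 lower and 1 higher. Differences were not confined to immune lists. Of 24 proliferation genes 17 were lower (median -0.37), of 14 Paneth cell genes 11 (median -1.19) and of 10 white adipocyte genes 8 (median -1.76), with 0 higher. In the other direction, 6 of 19 hypoxia-inducible genes and 3 of 4 small proline-rich genes were higher, with 0 lower. These counts stand against 7.69% of all genes lower and 11% higher. These values share the naproxen libraries with the first contrast. Celecoxib jejuna set against the same control jejuna gave 0 calls in edgeR, with an unadjusted p below 0.05 for 751 genes (4.37%), 2.01% higher and 2.36% lower. There Ntan1 had 20.2 to 27.6 CPM in celecoxib and 23.6 to 33.4 CPM in control jejuna, a log2 difference of -0.27 ± 0.09 (SE), and Rbbp9 had a difference of -0.18 ± 0.07 (SE), each with an adjusted p of 0.957. The controls are shared with the first contrast, so the values stand side by side without a test of their likeness.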

How the data were processed

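Estimated counts per gene were deposited by the authors. They were made with Salmon 1.9.0 and R 4.2.2 against GRCm38, per the submitters' processing notes, from a stranded total RNA kit, per the labels' protocols. Counts were rounded to whole numbers, since 24.1% of jejunum values were not whole. In R 4.3.3, 1 edgeR 4.0.16 model (robust quasi-likelihood, TMM, filterByExpr with a minimum count of 10, dissection batch as block) covered all 38 jejunum libraries of 5 groups, which share an estimate of the spread. Genes passed at a Benjamini-Hochberg adjusted p of 0.05. Alternatives used DESeq2 1.42.0 and limma 3.58.1, and the model was tested on simulated data. Coordinates are from GENCODE M21.

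Genes were to be named from the called ones with the same sign in all 4 dissection batches. Where fewer than 5 passed, the 10 genes with the smallest p took their place, with Ptgs1, Ptgs2 and members of each list. Further examples within lists, and genes without overlap, were chosen after their values were seen. The libraries compared and the 49 gene lists were chosen with earlier results of these data known, and 4 more lists were added after seeing the values. List members are not independent, and a list's count was read against the share of all genes. A gene that the rule would name is not reported here.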

Additional observations from a re-analysis of the deposited data

Results flagged for a closer look

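In 17 of 124 groups of values tested (13.71%), 1 library lay far from the others of its group by Dixon's gap ratio. The limit used is set for about 5% by chance in independent, normally distributed values. CPM of genes in the same libraries need not meet that, so the shares are not compared. Among naproxen jejuna, replicate 7 had 13.4 CPM of Plaat3 (others 24.2 to 29.6 CPM), replicate 6 had 9.84 CPM of Rgs13 (4.82 to 6.89 CPM), and replicate 3 had 1040 CPM of Tfrc, the transferrin receptor (165 to 538 CPM). Naproxen replicate 1 had 357 CPM of H2-Ab1, a chain of MHC class II (96.7 to 180 CPM), and 8.27 CPM of Prox1 (3.7 to 5.67 CPM). Naproxen replicate 4, which had the highest Rn7s1 share, had 105 CPM of mt-Nd6 (3.41 to 31.2 CPM).

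Control replicate 1, the control library with 2560 CPM of Fabp6, was the high value in 8 of the 11 control cases. It had 150 CPM of Ptgs1 (others 50.2 to 84.1 CPM), 23.1 CPM of Ptgs2 (4.82 to 13.1 CPM), 13 CPM of Ptger2 (2.53 to 6.02 CPM) and 5.24 CPM of Alox12 (1.78 to 2.69 CPM). It also had 365 CPM of H2-Ab1 (165 to 254 CPM), 48.9 CPM of Nr1h4 (18.7 to 31.6 CPM), 1.97 CPM of Prg2 (0.825 to 1.35 CPM) and 117 CPM of Dpt (26.4 to 61.3 CPM). Control replicate 3 had 806 CPM of Sult1d1 (350 to 545 CPM) and 40.2 CPM of Ido1 (20.3 to 26.1 CPM), and control replicate 5 had 23.1 CPM of Cd22, a B cell receptor (1.71 to 8.1 CPM).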

How the results depend on the processing

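For naproxen minus control, 2 genes passed as reported. The count was 0 with only the 15 libraries compared, without the dissection block, with a filter of 1 CPM, in limma voom and in the fit that was not robust. It was 94 in DESeq2 (34 higher, 60 lower) and 1182 with no filter on low counts (543 higher, 639 lower). With the replicate block in place of dissection batch it was 8, all lower, but same-numbered libraries correlated between -0.207 and 0.597, and only 2 of 7 did so best with their own number. Among settings chosen after seeing the data, an adjusted p of 0.1 gave 7, and the count was 0 without libraries above 10% Rn7s1, with the length covariate, without naproxen 1 and control 1, and without libraries over 1000 CPM of Fabp6. With the Rn7s1 share as a covariate it was 2, with 1 higher and 1 lower. With miscellaneous RNA and mitochondrial ribosomal RNA left out it was 2, with 0 higher and 2 lower. Leaving out 1 library gave 0 to 8 genes, with 8 without control replicate 1. For naproxen plus tryptophan minus tryptophan, DESeq2 called 10 and omissions gave 0 to 5 (3 and 5 without naproxen plus tryptophan replicates 5 and 7, 1 and 3 without tryptophan replicates 3 and 8). For naproxen minus celecoxib, DESeq2 called 291, limma voom 1, and omissions gave 0 to 498, the highest without naproxen replicate 6 (7 and 1 without naproxen replicates 2 and 3, 6 without celecoxib replicate 7). For the interaction DESeq2 called 2 and omissions gave 0. Causes of these changes were not tested. Among named genes, 9 of the log2 values changed sign: without libraries above 10% Rn7s1 Ptgs1 was -0.0839, Ptgs2 -0.373, Ptger2 -0.136 and Cd22 -0.418, with the length covariate Ptgs2 was -0.0148, and without libraries over 1000 CPM of Fabp6 Nr1h4 was -0.0125, Cd163 0.109, Prg2 0.0773 and Sdc1 -0.0572. None of these passed an adjusted p of 0.05 in either fit. The replicate block also gave white adipocyte genes a median of -0.896 and injury genes one of 0.0716. Of the other values of named genes, 1723 were on the same side of the threshold with the same sign, 51 newly passed it and 44 no longer did.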
